A study of Arabidopsis thaliana with 10 samples.

Results

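Histone genes of *Arabidopsis thaliana* were followed through seeds that carried an extra paternal genome. The genes were 41 loci listed by identifier, all found among the 33602 genes of the deposited expression table, and the rule that lists them uses no measured value. They code for the linker histone H1 (3 genes), for H2A in its canonical form (4), H2A.X (2), H2A.W (3) and H2A.Z (3), for H2B (9), for H3.1 (5), H3.3 (3) and the centromeric H3 (*HTR12*, 1), and for H4 (8). RNA was sequenced from whole seeds of 20 siliques per library, harvested at 6 DAP (days after pollination), with 2 libraries in each of 5 groups. In all groups the mother was a wild-type plant of the accession Ler. Diploid seeds (2n) were sired by Col pollen. Triploid seeds (3n) were sired by the *osd1* mutant, which makes unreduced pollen, comes from the accession Nossen and had been backcrossed into Col. The other triploid seeds were sired by the *osd1* double mutants with *adm-2*, with *suvh7-1* or with *peg2* and are written 3n *adm-2*, 3n *suvh7-1* and 3n *peg2*. In these 3 groups the imprinted genes *ADM*, *SUVH7* or *PEG2*, which are expressed from the paternal allele, carried a mutant paternal allele, while the maternal copy was wild type. The unit was RPKM, reads per kilobase of gene and per 1e6 reads, so that levels of genes of different length can be set side by side.

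Histones wrap the DNA of the nucleus. An octamer of H2A, H2B, H3 and H4 forms the core of the nucleosome, and H1 sits on the DNA between cores. The canonical forms (H3.1, H4, canonical H2A and H2B) are made mainly in S phase, when replicated DNA has to be packed, so their transcripts are commonly read as a sign of dividing or endoreduplicating cells. Variants replace them outside S phase or at particular places. H3.3 is deposited at transcribed genes, H2A.Z at the starts of genes and over responsive genes, H2A.W in heterochromatin, and the centromeric H3 at the kinetochore. H2A.X is not confined to sites of DNA damage but is phosphorylated there. In seeds of this age the embryo, the endosperm and the maternal seed coat all contribute RNA, and the endosperm passes from a stage of nuclear divisions without cell walls to cellularization.

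Plants have many copies of each histone gene, and the similarity of these copies decides how well single genes can be measured. In the RefSeq annotation of TAIR10.1 the 5 H3.1 genes code for 1 and the same protein of 136 residues, as do the 8 H4 genes with 103 residues and the 3 H3.3 genes with 136. H3.1 and H3.3 differ at 4 of their 136 residues, positions 31, 41, 87 and 90 counted without the first methionine. The DNA is less alike than the protein, since the coding bases of *AT1G09200* (H3.1) and *AT4G40040* (H3.3) differ at 90 of 411 positions. The stretch from codon 29 to codon 43 shows this, and it holds the first pair of residues that set H3.1 apart from H3.3. It is printed from RefSeq TAIR10.1 in the direction of transcription for 2 genes of each kind, and capitals mark bases that differ from *AT1G09200*.
AT1G09200 (H3.1): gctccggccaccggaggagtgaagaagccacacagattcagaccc
AT3G27360 (H3.1): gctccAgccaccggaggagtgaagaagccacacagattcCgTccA
AT4G40030 (H3.3): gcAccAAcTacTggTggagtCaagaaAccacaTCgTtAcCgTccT
AT4G40040 (H3.3): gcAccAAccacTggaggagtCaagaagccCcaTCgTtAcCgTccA
The authors kept at most 1 alignment per read of 100 bases. Of the 41 genes, 33 had no exon window of 100 bases that recurs elsewhere in the nuclear genome with up to 2 mismatches. The other 8 were 6 of the H4 genes and 2 H2B genes. The H4 genes *AT3G45930* and *AT3G46320* shared 38.2% and 41.7% of their windows with another place, and *AT1G07660* and *AT1G07820* shared 43.1% and 34.2%. *AT5G59690* and *AT5G59970* shared 16.7% and 21.1%. Values of these H4 genes are uncertain as single genes, and sums over the class are given for that reason. For *HTB9* and *HTB11* the shared part was below 1% of the windows.

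The promoters of plant histone genes are known for short conserved words, among them the octamer cgcggatc, which is linked to expression in S phase. In the 250 bases before each annotated start, searched on both strands, this word occurred in 10 of the 41 histone genes (24.4%) and in 37 of all 27444 promoters of that length (0.135%). Windows around it are printed from RefSeq TAIR10.1 in the direction of transcription, with the octamer or its reverse complement in capitals. They are shown because they belong to H3.1, H4 and H2A genes whose levels are compared next.
AT1G09200 (H3.1), chr1:2972403-2972438, minus strand: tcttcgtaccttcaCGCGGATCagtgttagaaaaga
AT5G10400 (H3.1), chr5:3271056-3271091, minus strand: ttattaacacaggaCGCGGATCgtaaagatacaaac
AT5G65360 (H3.1), chr5:26120686-26120721, minus strand: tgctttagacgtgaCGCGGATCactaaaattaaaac
AT5G59690 (H4), chr5:24051389-24051424, plus strand: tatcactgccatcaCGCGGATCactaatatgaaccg
HTA13 (canonical H2A), chr3:7229308-7229343, plus strand: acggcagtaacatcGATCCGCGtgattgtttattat
HTA6 (H2A.W), chr5:24116315-24116350, minus strand: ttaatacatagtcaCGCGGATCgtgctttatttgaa
In none of the 9 H2B promoters (0 genes) was the octamer found, but 7 of them held the hexamer acgtca, which occurred in 7.69% of all promoters. The hexamer is printed in capitals for *HTB2*, the H2B gene with the largest fall among those that hold it. It is also printed for *AT3G53650*, the H2B gene among the 41 histone genes that was called higher.
HTB2 (H2B), chr5:7652890-7652923, minus strand: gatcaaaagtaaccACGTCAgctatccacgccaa
AT3G53650 (H2B), chr3:19889187-19889220, plus strand: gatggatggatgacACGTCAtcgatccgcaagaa
The nonamer catccaacg was found in 0 of the 41 promoters and in 0.149% of all. The E2F words tttcccgc, tttggcgc, tttgccgc and tttcgcgc were found in 3 of the 41, namely *AT3G45930*, *AT3G46320* and *HTB2*, and in 1.41% of all promoters. Words were counted separately, and overlaps between them were not removed. Such a match describes the letters of these windows and shows no binding.

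Libraries summed to between 700509 and 743974 RPKM, 24106 to 25085 genes were above 0, and replicates correlated across genes with r between 0.990 and 0.996 on the log2 scale. Read counts are not part of the table. Steps between low values put the depth at 26.7 M to 35.4 M steps (M, 1e6), where a step may stand for a read or for a read pair. In such steps, the lowest library of *HIS1-3* held 55.3 and that of *HTR12* 386, the smallest values among the 41 genes. Ribosomal RNA from 4 annotated genes made up 9.24% to 17.3% of the RPKM and was highest in replicate 1 of 3n, which was also the shallowest library. RPKM of *OSD1* was 8.83 and 7.02 in 2n and between 0.864 and 3.35 in the 8 triploid libraries. *ADM* was lower in 3n *adm-2*, *SUVH7* in 3n *suvh7-1* and *PEG2* in 3n *peg2* than in 3n, each with an adjusted p under 0.05. For *ADM* and *PEG2* the fall was not confined to their own mutant. *ADM* had 2.42 and 4.01 RPKM in 3n and 0.758 and 0.706 in 3n *suvh7-1*. *PEG2* had 3.54 and 4.10 in 3n, 1.34 and 0.908 in 3n *adm-2* and 0.646 and 0.605 in 3n *suvh7-1*.

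Histone transcripts were abundant in every group. Together the 41 genes gave 7136 and 7065 RPKM in 2n, which was 1.02% and 1.01% of all RPKM. H2B gave the highest sum of a class, 2309 and 2296 RPKM in 2n, and the centromeric H3 gave the lowest, 9.29 and 9.19. Between these, H4 reached 1350.5 and 1345, H3.1 889 and 859, H3.3 674 and 723, and canonical H2A 577 and 558. H2A.W came to 442 and 400.4, H2A.Z to 380.0 and 391, H1 to 317 and 286, and H2A.X to 189.6 and 198. Neighbours in this order were apart in both 2n libraries. Within a class the genes were unequal. *HTB4* alone gave 30.3% of H2B, with a mean of 698 RPKM, while *AT3G09480* had 33.3 and 32.6. Among the H1 genes *AT1G06760* had a mean of 191 RPKM and *HIS1-3*, a linker histone known for its induction by drought, of 2.03.

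In triploid seeds 18 of the 26 canonical histone genes were called lower and 1 higher (limma, adjusted p under 0.05), beside 25.2% of all genes tested called lower and 19.5% higher. Of the H2A.Z and H2A.X genes *HTA11* and *H2AXA* were called higher and *HTA9* lower. The 41 genes together gave 5255 and 6149 RPKM in 3n, against 7136 and 7065 in 2n, a fall of the mean by 19.7%. The canonical forms, 26 genes of H3.1, H4, canonical H2A and H2B, went from a mean of 5091 ± 47.5 to 3877 ± 454 RPKM (SD, n = 2 each). Seeds are a mixture of tissues, and in such bulk samples fewer cells of a type and less RNA per cell cannot be told apart. The 2 libraries of 3n differed, replicate 1 being the lower in 40 of the 41 genes. That difference was not confined to histone genes. The median-of-ratios size factor, the median level of a library's genes relative to their mean over libraries, was 0.936 in replicate 1 and 1.04 in replicate 2. Both 3n libraries lay below 2n for the sums of H3.1, H4, canonical H2A, H2A.W, H2B, H1 and the centromeric H3.

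**Figure D1:**
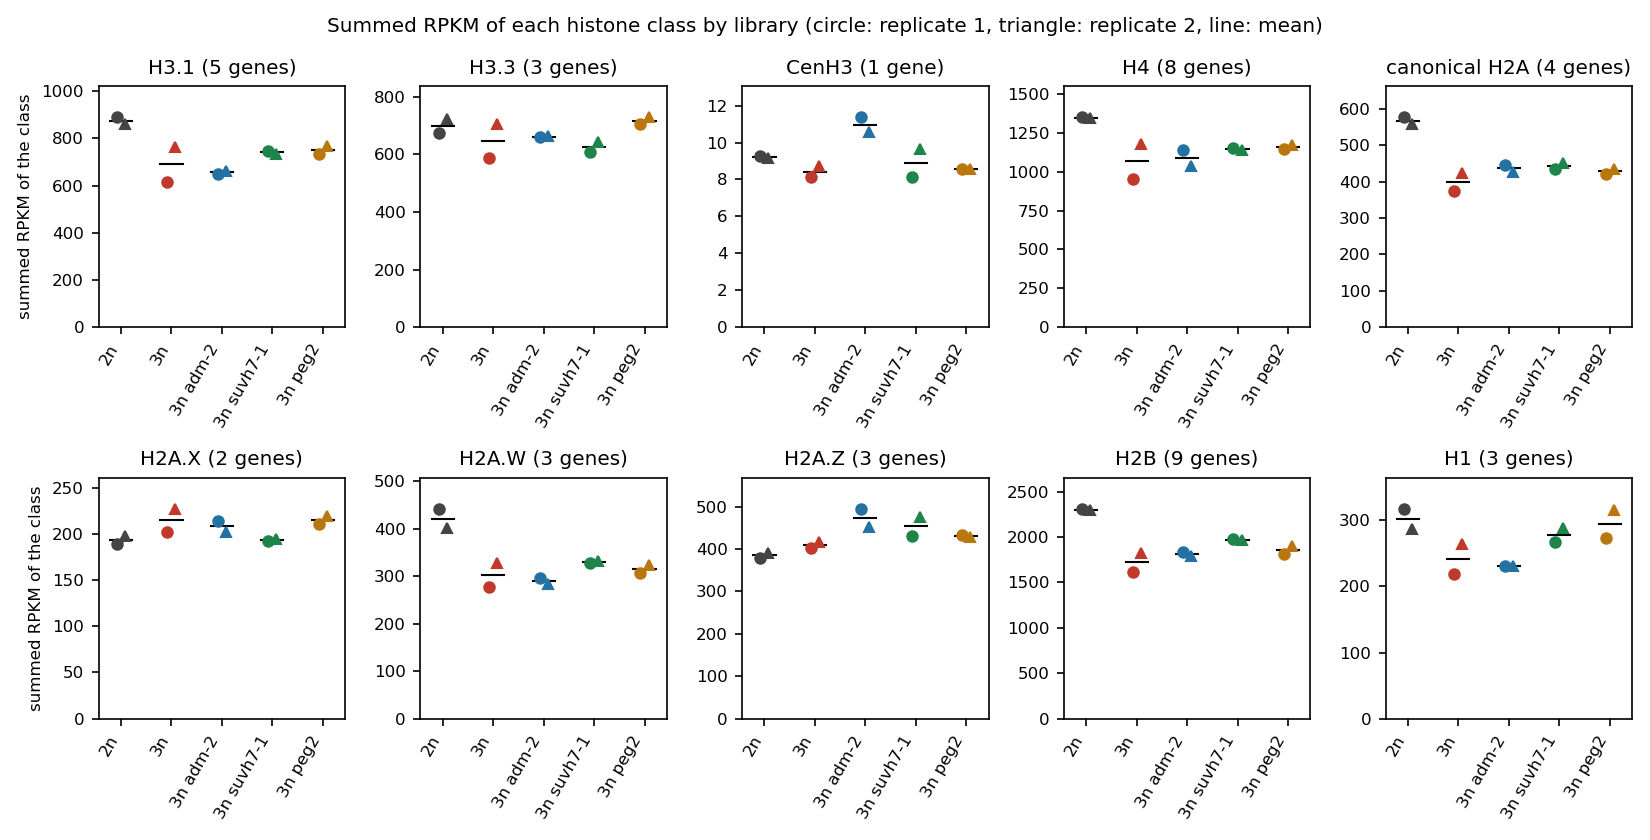
Summed RPKM of each histone class (y axis, from 0) in the 5 groups (x axis); circles are replicate 1, triangles replicate 2 and lines the mean of the 2 libraries. H3.1, H4, canonical H2A, H2A.W and H2B lie lower in all 8 triploid libraries than in both 2n libraries, and H2A.Z lies higher.

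Each gene was tested with limma on log2(RPKM + 0.1) in a fit to all 5 groups and 26601 genes, and a gene was called at a Benjamini-Hochberg adjusted p under 0.05 over all of these. Fold changes are on that scale. Of the 41 histone genes 24 were called lower and 5 higher in 3n than in 2n, and 12 were not called. Over all genes tested, 25.2% were called lower and 19.5% higher, so the comparison moved a large part of the transcriptome. The median log2 fold change of the histone genes was -0.29 and that of all genes was -0.01. Libraries of the 2 groups did not overlap in 37 of the 41 genes, 31 lying wholly lower in 3n and 6 wholly higher. For all genes those shares were 36.95% and 30.89%. Changes were small, since *HIS1-3* alone passed a log2 fold change of 1. Of the 24 genes called lower, 15 stayed called and of the 5 called higher *HTA11* and *AT3G53650* stayed called under each of 10 other settings, which included leaving out each of the 4 libraries in turn. The 9 lower calls lost under at least 1 of these settings were *AT5G10390*, *AT5G59970*, *HTA10*, *HTA7*, *HTA12*, *HTA9*, *AT2G37470*, *AT1G06760* and *AT2G30620*. Without replicate 1 of 3n, the library with the most ribosomal RNA, 18 genes were called lower, and without replicate 1 of 2n 2 genes were called higher. The rank product, the test named in the study's methods, called none of the 41 genes (0 higher and 0 lower) and 0.568% of all genes higher and 0.496% lower. With 2 libraries per group it calls few genes of any kind, so its 0 calls cannot decide on changes this small.

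**Figure D2:**
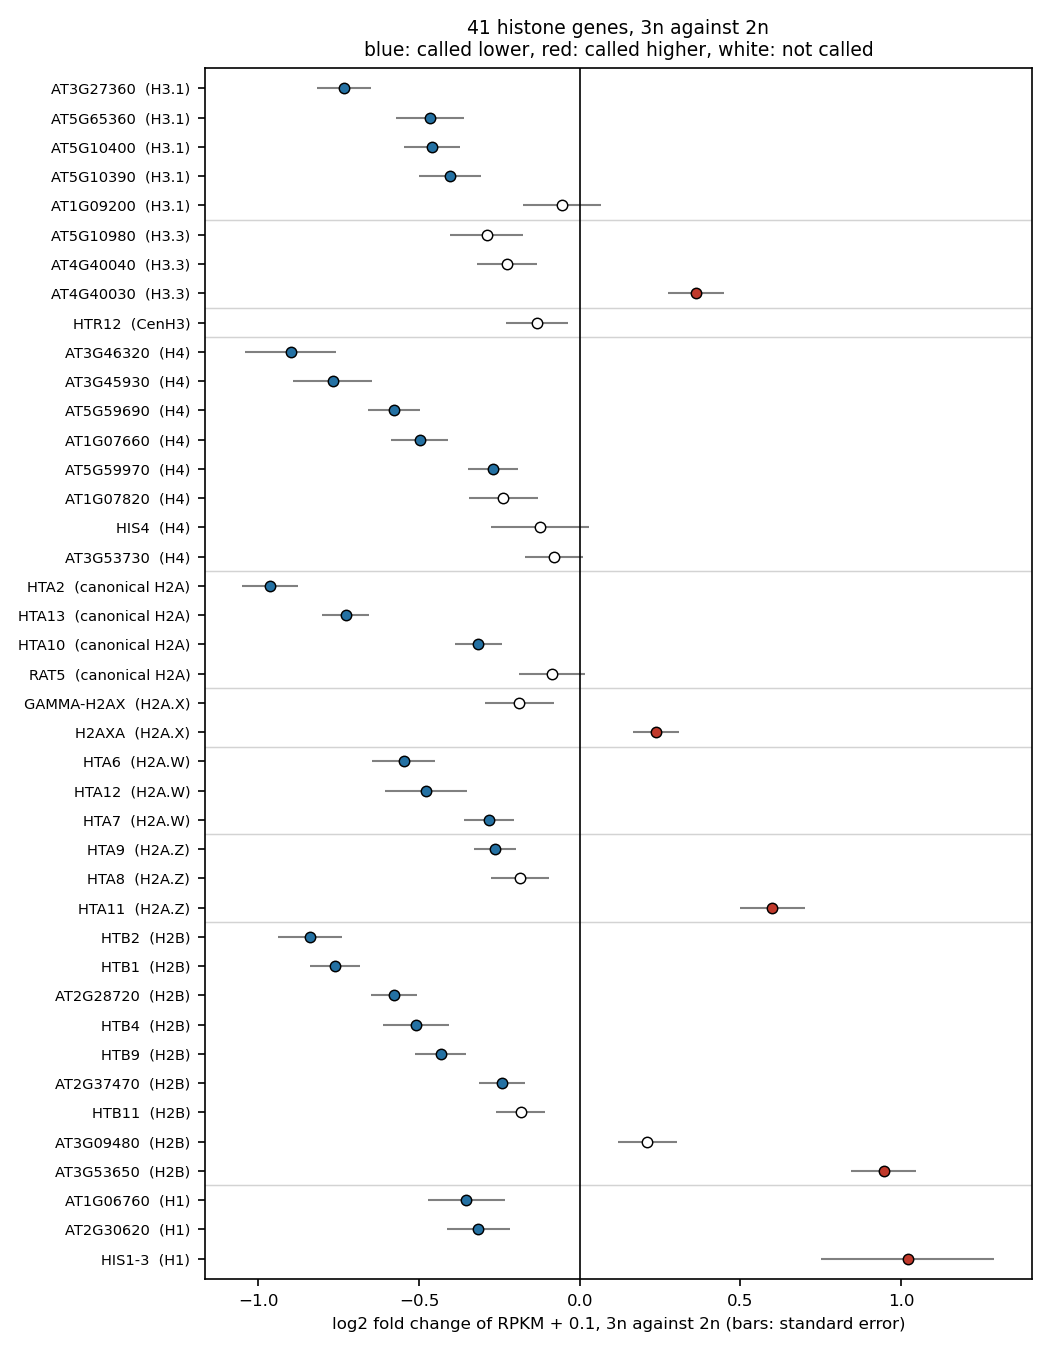
Log2 fold change of the 41 histone genes in 3n against 2n (x axis), with 1 row per gene grouped by class; points are the estimates of the fit, bars their standard errors, blue is called lower, red called higher and white not called. Most points lie left of 0, and the red points to the right are HIS1-3, AT3G53650, HTA11, AT4G40030 and H2AXA.

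Among the H3.1 genes 4 of 5 were called lower. The largest change was that of *AT3G27360*, whose RPKM was 84.3 and 79.0 in 2n and 46.4 and 51.8 in 3n, a log2 fold change of -0.73. *AT5G65360*, the highest H3.1 gene in 2n, went from 255 and 238 to 159.7 and 199 RPKM. *AT5G10390* and *AT5G10400*, neighbours on chromosome 5, had log2 fold changes of -0.40 and -0.46, the first not called without replicate 2 of 2n (adjusted p = 0.052). The fifth gene, *AT1G09200*, did not follow them. It had 248 and 244 RPKM in 2n and 207 and 270.4 in 3n, so the groups overlapped, and its log2 fold change was -0.06 (adjusted p = 0.75). With that, its share of the H3.1 sum was the highest of the class in 3n, at 34.6%. It carries the octamer printed above, as do *AT5G10400* and *AT5G65360*, which were called lower.

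The H3.3 genes, which code for the replacement form, split. *AT4G40030* was called higher, with 121 and 133 RPKM in 2n and 150.1 and 177 in 3n (log2 fold change 0.36, standard error 0.087, adjusted p = 0.0098 by limma). It lost the call without replicate 1 of 2n (adjusted p = 0.065, log2 fold change 0.30). *AT4G40040*, which lies next to it on chromosome 4, had 371 and 394 RPKM in 2n and 301 and 355 in 3n (-0.23, standard error 0.094, adjusted p = 0.085). *AT5G10980* had 181 and 197 in 2n and 138 and 173 in 3n (-0.29, standard error 0.11, adjusted p = 0.072). Neither was called, and both were called lower without replicate 2 of 3n, with log2 fold changes of -0.35 and -0.45. As a sum H3.3 overlapped between the groups, with 674 and 723 RPKM in 2n and 589 and 706 in 3n. The share of H3.3 in the sum of H3.1 and H3.3 was 43.1% and 45.7% in 2n and 48.8% and 48.0% in 3n. *HTR12*, the centromeric H3, had 9.29 and 9.19 RPKM in 2n and 8.13 and 8.72 in 3n, and its change of -0.13 (standard error 0.096, adjusted p = 0.31) did not pass the test.

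For H4, 5 of 8 genes were called lower and none (0 genes) higher. All 5 were among the 6 H4 genes with exon windows found elsewhere. The H4 genes without such windows, *HIS4* and *AT3G53730*, were not called (log2 fold change -0.12 and -0.08). The largest changes were those of *AT3G46320*, at -0.90 (standard error 0.14, adjusted p = 0.0011), and *AT3G45930*, at -0.77 (standard error 0.12, adjusted p = 0.0013), both on chromosome 3. *AT3G46320* had 112 and 106 RPKM in 2n and 50.8 and 66.9 in 3n, and *AT3G45930* had 110.5 and 115 against 59.2 and 73.9. Both are among the genes with exon windows found elsewhere, and of the H4 genes they alone held an E2F word, in a stretch of promoter that is printed the same for both.
AT3G45930 (H4), chr3:16883066-16883100, plus strand: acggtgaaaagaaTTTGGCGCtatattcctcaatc
AT3G46320 (H4), chr3:17020644-17020678, minus strand: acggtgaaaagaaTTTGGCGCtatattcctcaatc
*AT5G59690* followed with 241 and 234 RPKM in 2n and 148 and 171 in 3n, then *AT1G07660* at -0.50 and *AT5G59970* at -0.27, which was not called without replicate 1 of 2n, replicate 2 of 2n or replicate 1 of 3n (adjusted p = 0.084, 0.066 and 0.090). *HIS4*, the highest H4 gene, and *AT3G53730* overlapped between the groups, *HIS4* with 244 and 257 RPKM in 2n and 192 and 277 in 3n. *AT1G07820* had 207 and 208 RPKM in 2n and 155 and 199 in 3n, which did not pass (log2 fold change -0.24, adjusted p = 0.11). The sum over the class, which depends less on how reads were shared among copies, was 20.7% lower in 3n.

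Of the 4 canonical H2A genes 3 were called lower. *HTA2*, canonical, had the largest fall of all 41 genes: its RPKM was 147 and 132 in 2n and 67.5 and 75.5 in 3n, which is -0.96 ± 0.087 on the log2 scale with its standard error (adjusted p = 5.04e-05). Its TAIR10.1 position is 13637236 to 13638449 on chromosome 4. *HTA13* went from 129.7 and 134 to 74.8 and 84.4 RPKM (-0.73), and *HTA10*, the highest of the 4, from 233 and 226 to 176 and 193 (-0.32). *RAT5*, named for its part in transformation by Agrobacterium, overlapped between the groups with 67.8 and 65.4 RPKM in 2n and 55.5 and 70.8 in 3n. All 3 H2A.W genes were called lower. *HTA6*, which gave 69.0% of that class in 2n, had 304 and 277 RPKM in 2n and 180.1 and 219 in 3n (-0.55), *HTA12* changed by -0.48 and *HTA7* by -0.28. The calls of *HTA12* and *HTA7* were lost without replicate 1 of 2n (adjusted p = 0.10 and 0.11) and without replicate 1 of 3n (0.088 and 0.078).

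Within H2A.Z the genes went different ways. *HTA11* (chromosome 3 from 20196140 to 20197726) had 126 and 128 RPKM in 2n and 190.2 and 195 in 3n, which is 0.60 ± 0.10 on the log2 scale with its standard error (adjusted p = 0.0015). *HTA9* fell from 211 and 221 to 176 and 184 (-0.26, adjusted p = 0.012, lost without replicate 2 of 2n at 0.062), and *HTA8* had 42.4 and 41.8 in 2n and 37.3 and 36.7 in 3n (-0.19, not called). Between both groups *HTA11* and *HTA9* thus traded places, *HTA11* holding 33.2% and 32.8% of the H2A.Z sum in 2n and 47.2% and 46.9% in 3n. Of the H2A.X genes *H2AXA* had 144 and 153 RPKM in 2n and 168 and 183 in 3n (0.24, standard error 0.072, adjusted p = 0.027), a call that was lost without replicate 1 of 2n or replicate 2 of 3n. *GAMMA-H2AX* had 45.5 and 44.3 in 2n and 35.0 and 44.3 in 3n (-0.19, not called). As shares of all H2A, the canonical genes went from 36.3% and 36.1% in 2n to 29.8% and 30.4% in 3n, H2A.W from 27.8% and 25.9% to 22.0% and 23.5%, H2A.Z from 23.9% and 25.3% to 32.1% and 29.8%, and H2A.X from 11.9% and 12.8% to 16.1% and 16.3%. The groups did not overlap in any of these 4 shares. Shares within a library do not depend on how libraries are scaled.

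Of the 9 H2B genes 6 were called lower and *AT3G53650* was called higher. *HTB2* had 334 and 337 RPKM in 2n and 168 and 209 in 3n (log2 fold change -0.84, standard error 0.10, adjusted p = 2.45e-04). *HTB1* had 174 and 176 in 2n and 96.2 and 111 in 3n (-0.76, standard error 0.078, adjusted p = 1.02e-04). *HTB4*, the most abundant histone gene of the seed, went from 707 and 689.6 to 454 and 531 RPKM (-0.51), *HTB9* from 431 and 440.2 to 306 and 341 (-0.43), and *AT2G28720* from 42.1 and 45.0 to 28.9 and 29.4 (-0.58). *AT2G37470* changed by -0.24 (adjusted p = 0.025) and was not called without replicate 2 of 2n (0.12) or replicate 1 of 3n (0.093). *HTB11* had 356 and 334 RPKM in 2n and 291 and 316 in 3n and was not called. *AT3G53650* (chromosome 3 from 19889297 to 19890251) stood against these with 39.5 and 36.0 RPKM in 2n and 67.9 and 78.0 in 3n, which is 0.95 ± 0.10 on the log2 scale with its standard error (adjusted p = 1.43e-04). Its share of the H2B sum was 1.71% and 1.57% in 2n and 4.22% and 4.27% in 3n. *AT3G09480*, with the shortest H2B protein of the 9 (126 residues), had 33.3 and 32.6 RPKM in 2n and 36.1 and 40.3 in 3n and was not called (0.21, adjusted p = 0.098).

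The main H1 genes were lower and the inducible one was higher. *AT1G06760* had 205 and 178 RPKM in 2n and 137 and 163 in 3n (-0.35, standard error 0.12, adjusted p = 0.043), and *AT2G30620* had 111 and 106 against 79.0 and 96.1 (-0.32, standard error 0.098, adjusted p = 0.031). *AT1G06760* lost the call without replicate 1 of 2n and without replicate 1 of 3n (adjusted p = 0.22 and 0.21), and *AT2G30620* without either of these or replicate 2 of 2n (adjusted p = 0.071 to 0.14). *HIS1-3* (chromosome 2 from 7845923 to 7847031) had 1.62 and 2.43 RPKM in 2n and 3.33 and 5.14 in 3n, which is 1.02 ± 0.27 on the log2 scale with its standard error (adjusted p = 0.015). The H1 class was thus lower in 3n as a sum but 0.12 higher as a mean of log2 values, in which its 3 genes count equally. It is the least abundant of the 41 genes, and its call was lost without replicate 1 of 2n or replicate 2 of 3n (adjusted p = 0.099 and 0.089).

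**Figure D3:**
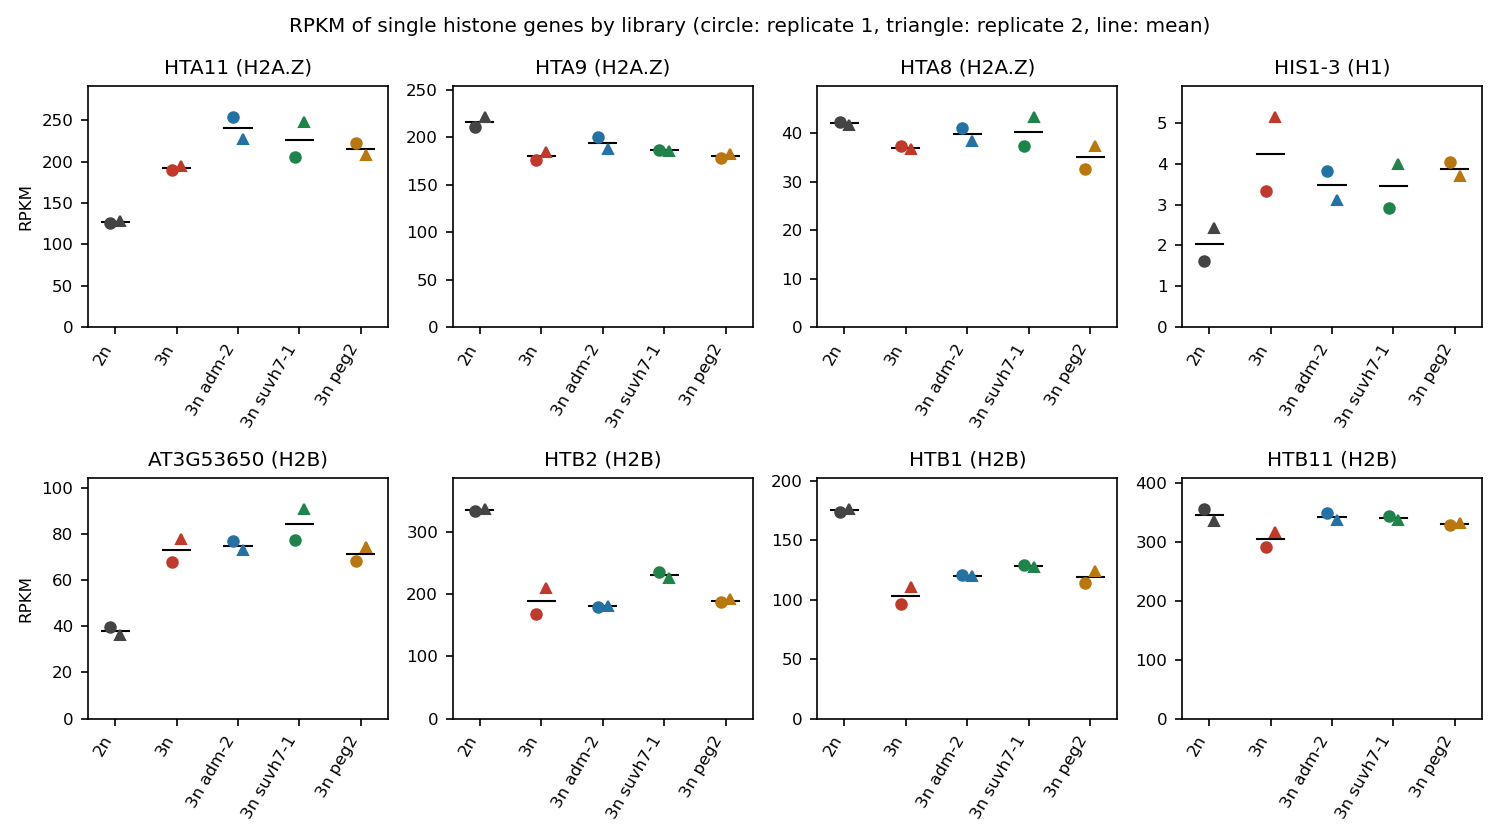
RPKM (y axis, from 0) of 8 histone genes in the 5 groups (x axis); circles are replicate 1, triangles replicate 2 and lines the mean of the 2 libraries. HTA11, AT3G53650 and HIS1-3 lie higher in the triploid libraries than in 2n, HTA9, HTB2 and HTB1 lie lower, and HTB11 and HTA8 overlap with 2n in some triploid groups.

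Genes that act with histones were read as well. DNA replication was represented by 17 genes of the MCM helicase, the sliding clamp, ribonucleotide reductase, licensing and origin recognition, of which 13 were called lower and *CDC6* higher, with a median log2 fold change of -0.61. *TSO2*, a small subunit of ribonucleotide reductase, had 58.2 and 56.4 RPKM in 2n and 28.1 and 33.8 in 3n (-0.89, standard error 0.085, adjusted p = 6.7e-05), and *MCM5*, a subunit of the helicase, had 24.3 and 23.3 against 12.8 and 13.8 (-0.84, standard error 0.068, adjusted p = 2.9e-05). *CDC6*, which loads that helicase, had 2.25 and 2.10 in 2n and 3.14 and 3.58 in 3n (0.60, standard error 0.15, adjusted p = 0.013). The origin genes *ORC1A*, *ORC1B* and *ORC6* were not called. Of 11 histone chaperones 4 were called lower and 0 higher, beside 25.2% of all genes tested called lower and 19.5% higher. Those 4 were *NAP1;3*, a nucleosome assembly protein, at -0.59 (standard error 0.091, adjusted p = 0.0011), and all 3 subunits of chromatin assembly factor 1, which brings H3.1 and H4 to replicated DNA: *FAS2* at -0.31 (standard error 0.087, adjusted p = 0.018), *FAS1* at -0.29 and *MSI1* at -0.19. *HIRA*, a chaperone of H3.3, had 7.83 and 7.46 RPKM in 2n and 6.28 and 7.10 in 3n (-0.19, not called), and *ASF1B*, at 0.16, was not called.

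Markers of the seed's tissues moved in the same comparison, in which 25.2% of all genes tested were called lower and 19.5% higher. The summed level of 8 embryo markers was 38.0 and 40.03 RPKM in 2n and 14.9 and 15.2 in 3n, with 6 called lower. That of 8 endosperm markers was 44.6 and 48.4 in 2n and 176 and 187 in 3n. Most of this sum in 3n was 1 gene, *PHE1*, with 0.909 and 0.749 RPKM in 2n and 133 and 135 in 3n. Of the 8, 5 were called higher (*AGL62*, *FIS2*, *FWA*, *PHE1* and *WRKY10*) and 2 lower. Those 2 were *RGE1* (17.3 and 18.6 in 2n, 7.05 and 7.53 in 3n) and *ALE1* (24.6 and 27.0 in 2n, 8.21 and 8.88 in 3n). The 8 seed coat markers summed to 1719 and 1848 in 2n and 1649 and 1679.5 in 3n, with 3 called higher and *MUM4* lower. Of 7 pollen markers, 6 could be tested, 3 were called higher and 2 lower, and their sum was 1.93 and 2.83 RPKM in 2n and 11.3 and 4.27 in 3n, with *DUO1* at 0 in all of these libraries and *MGH3* at 0 in 2n and at 0.058 and 0.024 in 3n. The part of tissue composition in the histone levels was not tested.

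The octamer in the promoter was set against the direction of change as a description. It was present in 8 of the 24 genes called lower, in 0 of the 5 called higher and in 2 of the 12 not called. The hexamer was present in 7 of the 24 called lower, in 1 of the 5 called higher and in 2 of the 12 not called, and the E2F words were present in 3 of the 24 and in none of the rest (0 genes).

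In triploid seeds with a mutated paternal allele, the log2 fold changes of single histone genes against 3n lay between -0.27 and 0.48. Some class sums lay wholly above 3n. All 3 comparisons share the 3n libraries, so a value that is off in 3n moves all of them. In 3n *adm-2* the 41 genes summed to 5983 and 5756 RPKM and lay between the 3n libraries. As class sums, H2A.Z (495 and 452 RPKM, against 403 and 416 in 3n) and canonical H2A (446 and 427, against 374 and 424) lay wholly above 3n. So did the centromeric H3, and no class lay wholly below 3n on the deposited scale. Size factors were 1.08 and 1.05 in 3n *adm-2* and 0.936 and 1.04 in 3n. Rescaling by them lowers 3n *adm-2* against 3n, so which classes lie wholly above or below 3n depends on the scaling. Of the 41 genes 4 were called higher than in 3n and 0 lower, a share near that of all genes, of which 8.12% were called higher and 1.85% lower. Wholly above 3n lay 14 of the 41 and wholly below it 0, against 38.94% and 15.76% of all genes. The median log2 fold change was 0.03 for the histone genes and 0.10 for all genes. The called genes were *AT2G28720* (H2B), with 28.9 and 29.4 RPKM in 3n and 42.3 and 38.9 in 3n *adm-2* (0.48, standard error 0.072, adjusted p = 0.0085), *HTR12*, *HTA13* and *AT2G37470*. *HTR12* had 8.13 and 8.72 RPKM in 3n and 11.4 and 10.6 in 3n *adm-2* (0.38, standard error 0.096, adjusted p = 0.047), the highest values of the centromeric H3 in any group. *HTA13* had 98.7 and 101 in 3n *adm-2* (0.33, standard error 0.074, adjusted p = 0.033) and *AT2G37470* had 212 and 199 (0.29, standard error 0.072, adjusted p = 0.042). *HTR12* and *AT2G37470* were not called after rescaling by size factors (adjusted p = 0.088 and 0.091), *HTA13* and *AT2G28720* were. Without replicate 1 of 3n *adm-2* no histone gene (0 genes) was called higher, and 1 was without replicate 2 of 3n *adm-2* or replicate 1 of 3n. Among the genes that act with histones, *SGA2* (a chaperone of H3 and H4, 0.25, standard error 0.065, adjusted p = 0.048), *RNR2A* (a subunit of ribonucleotide reductase, 0.32, standard error 0.079, adjusted p = 0.044) and *CDT1A* (a licensing factor, 0.30, standard error 0.073, adjusted p = 0.040) were called higher. The H1 genes *AT1G06760* (-0.09), *AT2G30620* (0.01) and *HIS1-3* (-0.25) and the H3.3 genes *AT4G40030* (-0.08), *AT4G40040* (0.07) and *AT5G10980* (0.09) did not pass, with standard errors of 0.087 to 0.27 and adjusted p from 0.59 to 0.98.

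In 3n *suvh7-1* the sum was 6149 and 6236 RPKM, above both 3n libraries in replicate 2 and level with the higher of them in replicate 1. As class sums, H2B (1980 and 1965 RPKM, against 1610 and 1828 in 3n) and H1 (268 and 288, against 219 and 264) lay wholly above 3n. So did canonical H2A and H2A.Z, while H2A.X lay wholly below 3n (193 and 195, against 203 and 228). *HTB1* was the only gene called, with 96.2 and 111 RPKM in 3n and 129 and 127 in 3n *suvh7-1* (0.31, standard error 0.078, adjusted p = 0.044), and 0 genes were called lower. Of all genes 4.87% were called higher and 4.27% lower. Of the 41 genes 34 had a positive log2 fold change, the median being 0.15 against -0.04 for all genes, and 20 lay wholly above and 2 wholly below 3n, against 19.56% and 25.78% of all genes. All 9 H2B genes were among those with a positive value, between 0.14 and 0.31. After rescaling by size factors 7 genes were called higher, and *HTB1* was not called without replicate 1 of 3n (adjusted p = 0.10), without replicate 1 of 3n *suvh7-1* (0.17) or without replicate 2 of 3n *suvh7-1* (0.14). *AT4G40030* had a value of -0.21 (standard error 0.087, adjusted p = 0.21), *AT4G40040* of -0.07, *AT5G10980* of 0.17, *HTR12* of 0.07, *AT1G06760* of 0.22, *AT2G30620* of 0.20 and *HIS1-3* of -0.27, none of which passed (adjusted p from 0.21 to 0.72). Of the DNA replication genes *PCNA2* (0.53, standard error 0.079, adjusted p = 0.0052) and *PCNA1* (0.28, standard error 0.066, adjusted p = 0.036) were called higher. The embryo markers summed to 21.1 and 21.4 RPKM and the endosperm markers to 136 and 131, against 14.9 and 15.2 and 176 and 187 in 3n. Of the endosperm sum, *PHE1* alone gave 101 and 98.0 RPKM, against 133 and 135 in 3n. The part of these markers in the histone values was not tested.

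In 3n *peg2* none of the 41 genes was called by limma (0 higher and 0 lower), as in nearly all genes, of which 0.0865% were called higher and 0.154% lower. At an unadjusted p under 0.05, 4 of the 41 passed, as did 2296 of the 26601 genes tested, and the rank product called 0. The sum was 6056 and 6293 RPKM. As class sums, H1 (273 and 316 RPKM, against 219 and 264 in 3n), H2A.Z and H3.3 lay wholly above 3n, and no class lay wholly below it. The median log2 fold change was 0.10 against -0.02 for all genes. Of the 41 genes 15 lay wholly above 3n and 0 wholly below, against 12.14% and 19.74% of all genes. The highest value was that of the H1 gene *AT2G30620* (0.33, standard error 0.098, adjusted p = 0.34), with 103 and 117 RPKM. *RAT5* (adjusted p = 0.50) and the H1 gene *AT1G06760* (standard error 0.12, adjusted p = 0.59) followed, both at 0.27. *HIS1-3* had a value of -0.10, *HTR12* of 0.02, *AT4G40030* of 0.09, *AT4G40040* of 0.15 and *AT5G10980* of 0.22, with adjusted p from 0.66 to 0.99.

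**Figure D4:**
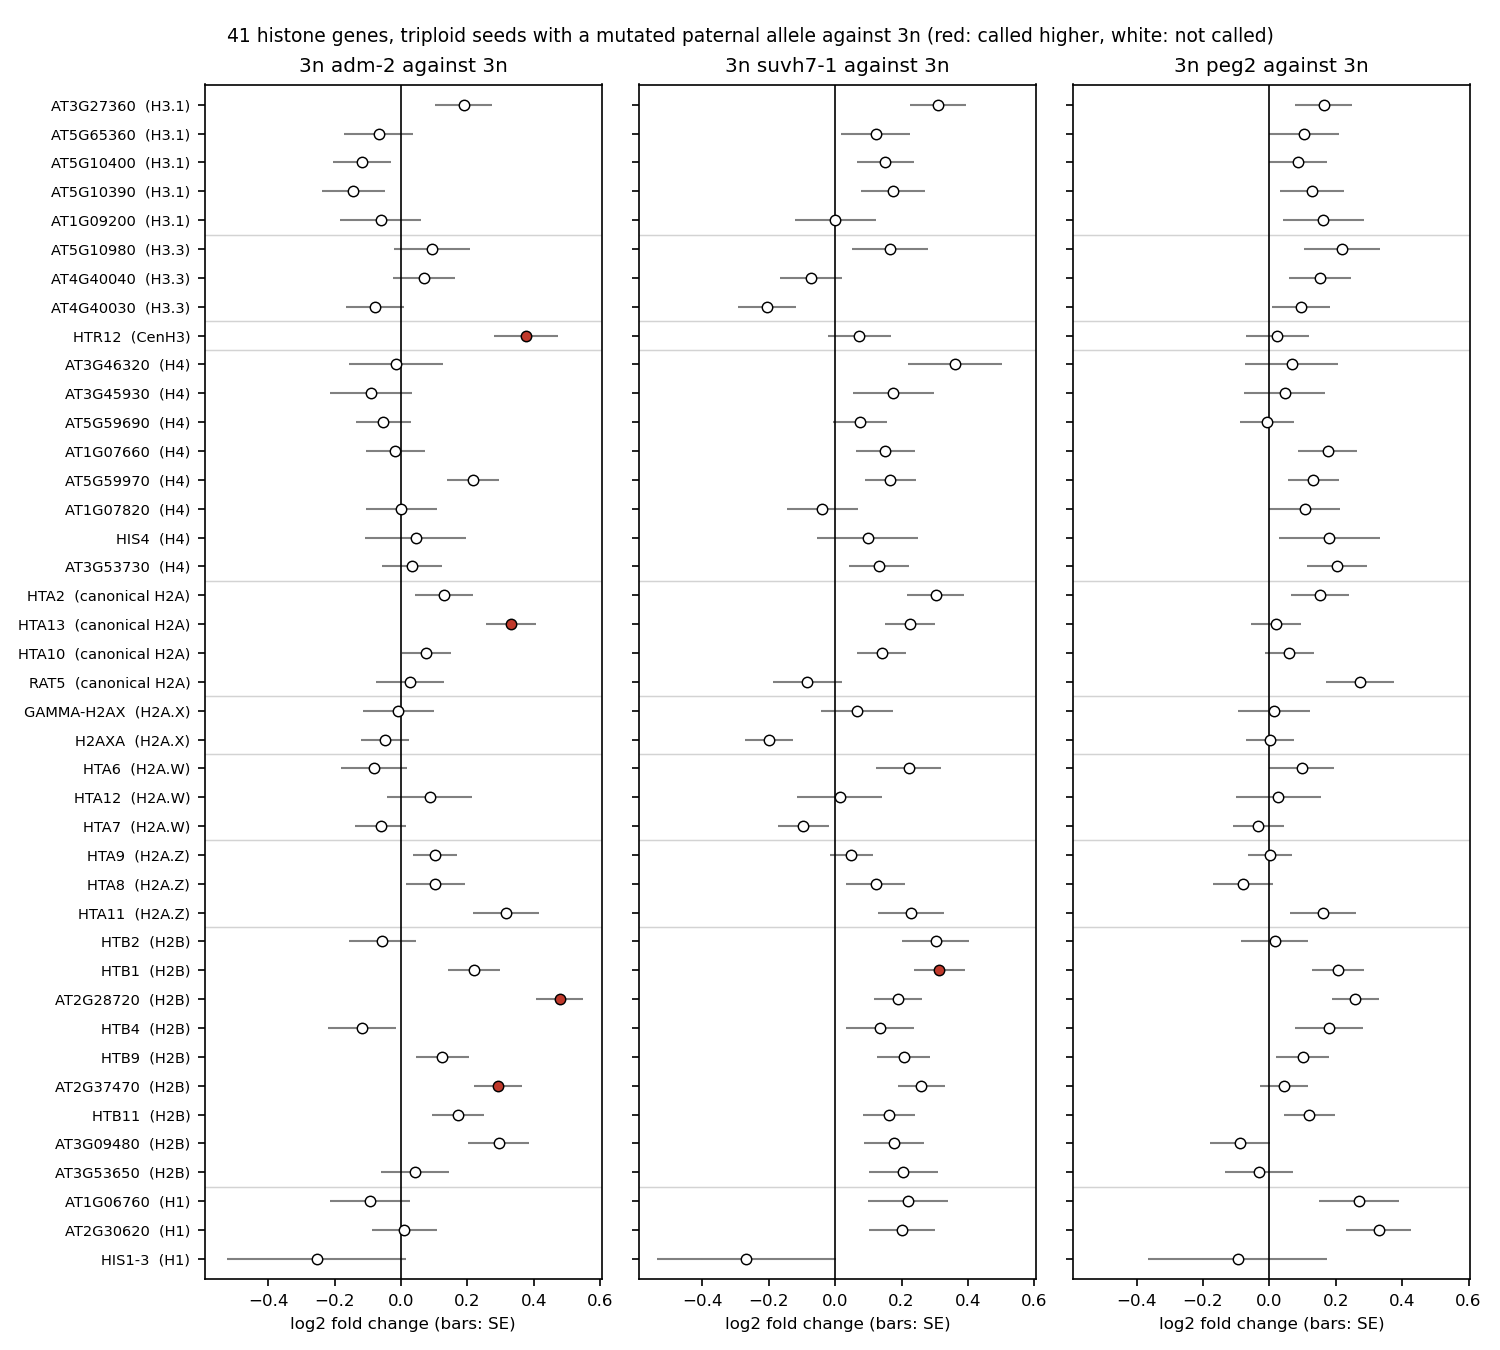
Log2 fold change of the 41 histone genes (rows, grouped by class) in 3n adm-2, 3n suvh7-1 and 3n peg2 against 3n (x axes); points are the estimates, bars their standard errors, red is called higher and white not called. Red points are AT2G28720, HTR12, HTA13 and AT2G37470 in 3n adm-2 and HTB1 in 3n suvh7-1, and all points lie between -0.27 and 0.48.

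Set beside 2n as levels, the canonical forms stayed lower in every triploid group. Their 26 genes summed to 5125 and 5058 RPKM in 2n, 3556 and 4199 in 3n, 4075 and 3912 in 3n *adm-2*, 4314 and 4292 in 3n *suvh7-1* and 4118 and 4269 in 3n *peg2*. H2A.W came to 295 and 284 in 3n *adm-2*, 327 and 333 in 3n *suvh7-1* and 306 and 322 in 3n *peg2*, against 442 and 400.4 in 2n. *HTA11* lay between 190.2 and 253 RPKM in the 8 triploid libraries, against 126 and 128 in 2n, and *AT3G53650* lay between 67.9 and 90.9, against 39.5 and 36.0. H3.3, at 674 and 723 in 2n, overlapped with 3n (589 and 706) and 3n *peg2* (706 and 729), and lay above 3n *adm-2* (662 and 663) and 3n *suvh7-1* (609 and 642). H1, at 317 and 286 in 2n, overlapped with 3n *suvh7-1* (268 and 288) and 3n *peg2* (273 and 316). It lay above 3n (219 and 264) and 3n *adm-2* (231 and 231).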

How the data were processed

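RNA-seq values of 10 libraries were analysed, 2 for each of 5 groups, with groups and replicate numbers taken from the labels. The deposited table held RPKM, which the authors computed after trimming 100-base paired-end reads and aligning them to TAIR10 with TopHat2 (v2.0.10), keeping no more than 1 alignment of a read. The program that gave RPKM is not given in the sources used here. Values were tested as log2(RPKM + 0.1) with limma (v3.58.1, R v4.3.3; lmFit and eBayes with trend) in 1 fit to all 5 groups, which left 5 degrees of freedom, over 26601 genes, those with values above 0 in 2 or more libraries, and p-values were adjusted after Benjamini and Hochberg. A rank product with 100 permutations, rewritten after the study's methods, served as an alternative, since limma gives an error for each gene. Class sums were given without a test. Read counts are not in the table, so depth was read from steps between low values. The study's methods speak of duplicates, and neither they nor the labels say that these came from separate plants. The p-values therefore measure the spread between these libraries, which may be technical.

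The 41 genes, the other lists and the motifs were chosen with earlier results of these data known. All 41 identifiers matched RefSeq, as did 32835 of the 33602 in the table. Full statistics were given for the 5 called genes with the largest change each way per comparison, and for the 2 called genes of each pathway list with the largest change each way. *HTR12*, the 3 H1 and the 3 H3.3 genes were given in every comparison, in the mutants partly with a range of adjusted p. Other genes are named with values to describe their class. Alternatives were pseudocounts of 0.01 and 1, a mean RPKM of at least 1 (18383 genes), median-of-ratios size factors, a fit to the compared groups alone, a replicate block, a log2 fold change past 1, a mean of logs in place of sums, and leaving out each library. The limma script was tested on simulated data. Sequences were read from TAIR10.1.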

Additional observations from a re-analysis of the deposited data

How the results depend on the processing

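Counts of histone genes called were the same to within 1.5 times under both pseudocounts and the minimum of 1 RPKM in all 4 comparisons. In 3n against 2n, the 24 lower calls became 16 in a fit to 2 groups only, 0 with a log2 fold change past 1 and 0 by rank product, and lay between 18 and 30 on leaving out 1 library. The 5 higher calls became 3 in a fit to 2 groups only, 1 with a log2 fold change past 1, 0 by rank product, and 2 to 5 on leaving out 1 library. In 3n *adm-2*, the 4 higher calls became 2 with size factors, 2 with the replicate block, 1 in the fit to 2 groups only, 0 past a log2 fold change of 1, 0 by rank product, and 0 to 3 on leaving out 1 library, while the 0 lower calls became 1 with size factors and 0 to 1 on leaving out 1 library. In 3n *suvh7-1*, the 1 higher call became 7 with size factors, 0 with the replicate block, 0 in the fit to 2 groups only, 0 past a log2 fold change of 1, 0 by rank product, and 0 to 3 on leaving out 1 library. Its 0 lower calls became 0 to 2 on leaving out 1 library. In 3n *peg2* there were 0 calls under each of these. The cause was not tested.

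Of 407 values of single genes under an alternative, 364 kept their side of the threshold, 39 lost it and 4 gained it, with none reversed (0 values). Of 264 log2 ratios of class sums, 38 moved by more than the spread between replicates. Among them the direction turned for H1 in 3n against 2n (0.12 as a mean of logs) and for H2B in 3n *adm-2* (-0.03 with size factors). Size factors moved the median of all genes from 0.10 to 0.00 in 3n *adm-2*. Libraries of the same replicate number deviated together with r of 0.01 in 3n against 2n and -0.07, -0.09 and -0.17 in 3n *adm-2*, 3n *suvh7-1* and 3n *peg2* against 3n, so the numbers were not read as pairs. With the replicate block 25 genes were called lower in 3n than in 2n. A crossed pairing in 3n *peg2*, chosen after seeing the data, gave 0 calls. With 2 libraries per group, small changes can be missed, and *HIS1-3* and *HTR12* rest on the fewest reads.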

Other observations

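Of the histone genes outside the 41, a pair was higher in all triploid libraries than in 2n. They were listed as *HTR14* (*AT1G75600*) and *HTB10* (*AT5G02570*), names of the H3 and H2B series that were not found in their annotation. The class sums above leave them out. *AT1G75600*, annotated as a histone superfamily protein, had 0.19 and 0.46 RPKM in 2n and 45.2 and 53.6 in 3n, which is 6.94 ± 0.26 on the log2 scale with its standard error (adjusted p = 4.08e-07 by limma). It had 44.5 and 44.3 RPKM in 3n *adm-2*, 29.0 and 29.5 in 3n *suvh7-1* and 47.0 and 47.1 in 3n *peg2*, so that all 8 triploid libraries lay above both 2n libraries. *AT5G02570*, with the same annotation, had 7.12 and 8.92 RPKM in 2n and 22.5 and 26.5 in 3n (1.60, standard error 0.12, adjusted p = 1.66e-05). In 3n *suvh7-1* it had 18.7 and 17.6 RPKM, below both 3n libraries, but the difference was not called (-0.43, adjusted p = 0.065). *HTR11* had 2.53 and 2.69 RPKM in 2n and was not called in 3n (0.18, adjusted p = 0.42). *MGH3*, the H3 of sperm, lay at or below 0.058 RPKM in every library.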
